A study of Homo sapiens with 8 samples.

Results

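The genes described are 10 components of interleukin-6 (IL-6) signaling: the receptor chains *IL6R*, *IL6ST* and *LIFR*, the kinases *JAK1* and *JAK2*, the transcription factor *STAT3*, and the feedback inhibitors *SOCS1*, *SOCS2*, *SOCS3* and *CISH*. They were chosen by name, through the Entrez gene ID of each symbol, and all 10 were found among the 26235 genes of the count files. The cells were HepG2, a human line from a hepatocellular carcinoma, grown without phenol red in charcoal-stripped serum, starved in 0.1% FBS for 16 h and treated for 48 h. The 4 treatments were 1 µM E2 (17β-estradiol, the natural steroid estrogen), 1 µM PPT, a nonsteroidal agonist selective for ERα, 1 µM DPN, a nonsteroidal agonist selective for ERβ, and the vehicle DMSO (Control). RNA-Seq counts of 2 libraries per treatment were analysed, 8 in all, and the comparisons ask how each compound differs from the vehicle and how the compounds differ from each other.

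IL-6 binds its receptor IL6R, and the pair recruits gp130, the product of *IL6ST*, which carries the signal into the cell and is shared by the cytokines of the family. Kinases of the JAK family sit on gp130 and phosphorylate STAT3, which then enters the nucleus. In hepatocytes STAT3 drives the acute-phase proteins, and it also drives SOCS proteins, which bind the receptor or the kinases and shut the signal off. IL6R can be cut from the cell surface by the protease ADAM17, and the soluble receptor can then act on cells that lack their own.

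The libraries held 25103160 to 29670814 counts. Levels are CPM (counts scaled to a common library total) after TMM scaling, and a count of 3, taken as the limit of detection, is 0.0967 to 0.134 CPM depending on the library, for counting error only. All 10 genes were among the 15460 with enough counts for edgeR's quasi-likelihood F test, in which the 8 libraries shared one fit. A gene changed where its adjusted p was under 0.05, and was called at the thresholds of the study, a log2 fold change above 1.5 in size with an adjusted p under 0.01. Whether the 2 libraries of a treatment came from separate cultures is stated in neither source, and the p-values then cover the spread between these libraries alone, which may be technical. The 9 hepatocyte markers, which include albumin and apolipoprotein B, were all detected, with a summed level of 70795 to 74217 CPM with E2, 34484 to 37828 CPM with PPT, 34540 to 35676 CPM with DPN and 51402 to 52838 CPM in Control. The 13 markers of other liver cells summed to 87.6 to 89.8 CPM with E2, 38.6 to 41.2 CPM with PPT, 41.3 to 44.5 CPM with DPN and 52.5 to 53.5 CPM in Control, and 6 of them (*PTPRC*, *CD163*, *CD3E*, *STAB2*, *COL1A1* and *COL1A2*) were too rare to test. These sums moved with the treatments, and their part in the results was not tested. The sums are carried by the most abundant genes. Singly, 5 of the 9 hepatocyte markers were higher and 2 lower with E2, 1 and 7 with PPT, and 0 and 8 with DPN. Of all tested genes, 30.8% were higher and 31.8% lower with E2, 22.9% and 22.8% with PPT, and 24.4% and 24.1% with DPN. *TTR* had 144 and 129 CPM with E2 against 228 and 253 CPM in Control. HepG2 is a single line, so these markers check the label of the cells and do not measure shares of cell types. In bulk RNA, a change in every cell and a change in some of the cells cannot be told apart.

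The promoters of 9 of the genes were searched for TTCNNNGAA, the palindrome that STAT dimers are known to bind, and 1 of the 9, that of *CISH*, held it. It is shown because *CISH* is a textbook STAT target. The sequence is the 250 bases before the start of the Ensembl canonical transcript, read 5′ to 3′ on the strand of the gene, with the matches in capitals. The window is chr3:50611775-50612024 on the minus strand of GRCh38.
CISH: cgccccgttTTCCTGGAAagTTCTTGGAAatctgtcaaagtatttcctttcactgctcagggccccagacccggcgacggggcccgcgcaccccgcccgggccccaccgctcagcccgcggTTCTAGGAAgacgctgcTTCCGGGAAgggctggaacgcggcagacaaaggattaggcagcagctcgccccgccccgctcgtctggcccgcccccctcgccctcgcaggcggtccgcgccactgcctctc
The window held 4 matches, namely TTCCTGGAA, TTCTTGGAA, TTCTAGGAA and TTCCGGGAA, the farthest 241 and the nearest 104 bases before the start. The palindrome reads the same on both strands, and 5.99% of 25055 promoters of that length held it, or 5.34% of the 14974 of tested genes. The estrogen response element, GGTCA and TGACC with 3 bases between them, was found in 0 of the 9 windows and in 0.0359% of all promoters, on both strands. Its hexamer AGGTCA, which overlaps the full element, was found on either strand in 2 windows, those of *LIFR* and *SOCS2*. It was in 11% of all promoters and 9.24% of those of tested genes. Both windows lie before the canonical start but within the gene spans given below. A match is a description of the letters and not of a bound site.

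*IL6R* (GeneID 3570, chr1:154405193-154469450, plus strand, GRCh38) encodes the chain that recognizes IL-6, and it moved farthest among the receptor genes. It stood at 27.7 and 29.6 CPM with E2, 98.8 and 107 CPM with PPT, 125 and 131 CPM with DPN, and 20.6 and 22.6 CPM in Control. The libraries of the 4 treatments did not overlap: DPN was highest, PPT next, and E2 was just above Control. Expression of *IL6R* was 5.93-fold higher with DPN than in Control (95% interval 5.26 to 6.68, adjusted p = 5.02e-19) and 4.76-fold higher with PPT (4.22 to 5.36, adjusted p = 6.83e-18), and both rises were called. With E2 it was 1.33-fold higher (1.17 to 1.51, adjusted p = 0.000251), below the fold that counts as called. Scaled by library size alone, the E2 rise was a log2 fold change of 0.18 with an adjusted p of 0.0701, and that scaling moved the median of all genes with E2 to -0.23.

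*IL6ST* (GeneID 3572, chr5:55935095-55995022, minus strand), the gene of the signaling chain gp130, moved less and in opposite directions. It was measured at 234 and 235 CPM with E2, 285 and 322 CPM with PPT, 377 and 350 CPM with DPN, and 300 and 282 CPM in Control. E2 libraries were the lowest and DPN libraries the highest, while PPT overlapped Control. *IL6ST* fell by 19.5% with E2 (adjusted p = 0.000304) and rose by 24.8% with DPN (adjusted p = 0.000328). With PPT the log2 fold change was 0.06 (95% interval -0.08 to 0.20, adjusted p = 0.496).

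*LIFR* (GeneID 3977, chr5:38474668-38608354, minus strand) encodes the chain that joins gp130 in the receptor for LIF and related cytokines, and it had an order of its own. Its levels were 71.4 and 80.3 CPM with E2, 32.9 and 39.3 CPM with PPT, 51.8 and 54.9 CPM with DPN, and 43.3 and 40.0 CPM in Control. E2 was highest, DPN next, and both PPT libraries lay below both Control libraries. The gene rose 1.82-fold with E2 (95% interval 1.60 to 2.08, adjusted p = 6.13e-09) and 1.28-fold with DPN (1.12 to 1.46, adjusted p = 0.00208). With PPT the log2 fold change was -0.20 ± 0.094 (SE, adjusted p = 0.0798), and without PPT replicate 2 it was -0.34 (adjusted p = 0.00933). The antisense RNA *LIFR-AS1* overlaps the gene and was at 0.421 to 1.5 CPM in all libraries.

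**Figure D1:**
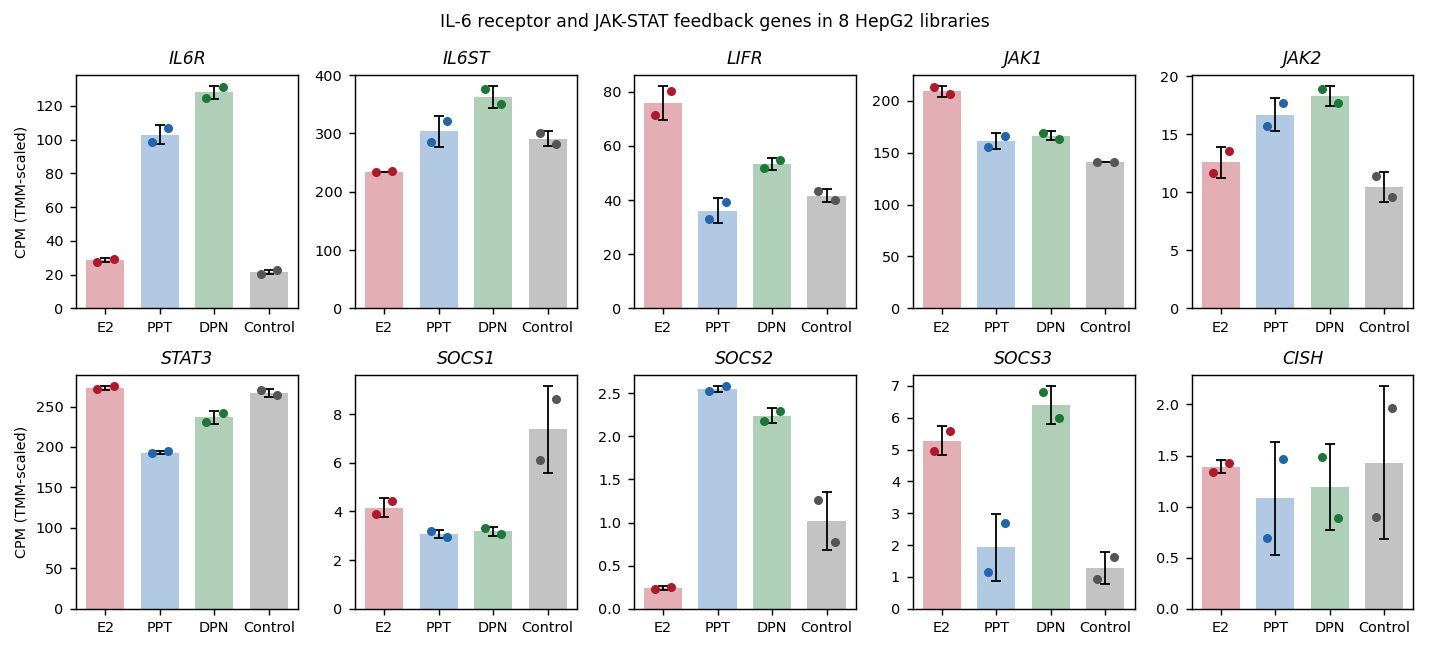
Levels of the 10 genes in CPM after TMM scaling (vertical axes, each from 0) for E2, PPT, DPN and Control. Points are single libraries, bars are means and error bars are SDs (n = 2). *IL6R* is high with PPT and DPN (98.8 to 131 CPM), *SOCS3* with E2 and DPN (4.96 to 6.82 CPM), and *SOCS2* is lowest with E2 (0.224 and 0.253 CPM).

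*JAK1* (GeneID 3716, chr1:64833223-65067754, minus strand), the kinase on which gp130 signaling chiefly depends, was higher with every compound. It had 213 and 206 CPM with E2, 155 and 166 CPM with PPT, 169 and 163 CPM with DPN, and 141 CPM in both Control libraries. Every treated library lay above both Control libraries, and E2 libraries lay above all others. The rise was 1.49-fold with E2 (95% interval 1.35 to 1.63, adjusted p = 2.64e-08), 1.14-fold with PPT (1.04 to 1.25, adjusted p = 0.0199) and 1.18-fold with DPN (1.07 to 1.30, adjusted p = 0.00372). The PPT change no longer passed without Control replicate 1, Control replicate 2 or PPT replicate 2 (adjusted p = 0.0975, 0.112 and 0.136), and the DPN change without DPN replicate 1 (0.0517). *RAVER2*, a gene on the opposite strand that shares exon bases with *JAK1*, moved the other way, at 14.5 and 14.9 CPM with E2, 15.8 and 16.3 CPM with PPT, 20.8 and 20.9 CPM with DPN, and 28.9 and 28.0 CPM in Control.

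*JAK2* (GeneID 3717, chr9:4984390-5129948, plus strand), a kinase that gp130 shares with the receptors for growth hormone and erythropoietin, was less abundant than *JAK1* per kb of exon (1.33 against 10.7 CPM per kb in Control). It was read at 11.7 and 13.6 CPM with E2, 15.7 and 17.7 CPM with PPT, 18.9 and 17.7 CPM with DPN, and 11.4 and 9.62 CPM in Control. PPT and DPN libraries lay above all E2 and Control libraries, and the E2 libraries were only slightly above Control. *JAK2* rose 1.58-fold with PPT (95% interval 1.32 to 1.91, adjusted p = 0.000131) and 1.74-fold with DPN (1.44 to 2.09, adjusted p = 1.05e-05). With E2 the log2 fold change was 0.26 (-0.02 to 0.54, adjusted p = 0.0967).

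*STAT3* (GeneID 6774, chr17:42313324-42388540, minus strand), the transcription factor that the kinases activate, was lower with the nonsteroidal agonists. Its levels were 272 and 275 CPM with E2, 192 and 195 CPM with PPT, 231 and 242 CPM with DPN, and 270 and 264 CPM in Control. PPT libraries were the lowest, DPN libraries the next, and E2 libraries lay just above Control by this scaling. *STAT3* fell by 27.6% with PPT (adjusted p = 6.73e-07) and by 11.4% with DPN (adjusted p = 0.0226). The DPN fall no longer passed without Control replicate 1, Control replicate 2 or DPN replicate 1 (adjusted p = 0.145, 0.0593 and 0.183). With E2 the log2 fold change was 0.03 (95% interval -0.10 to 0.16, adjusted p = 0.662), and scaled by library size it was -0.19 (adjusted p = 0.00956), close to the shift of all genes under that scaling. These are mRNA levels, and the phosphorylation that activates STAT3 was not measured in the counts.

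The feedback genes did not move together. *SOCS1* (GeneID 8651, chr16:11254417-11256204, minus strand), whose protein inhibits the JAK kinases, had 3.89 and 4.42 CPM with E2, 3.19 and 2.95 CPM with PPT, 3.33 and 3.06 CPM with DPN, and 6.13 and 8.64 CPM in Control. All treated libraries lay below both Control libraries, which themselves stood apart from each other. *SOCS1* fell by 43.6% with E2 (adjusted p = 0.00138), by 58.4% with PPT (adjusted p = 1.84e-05) and by 56.7% with DPN (adjusted p = 2.93e-05). Without Control replicate 2, the higher of the Control libraries, the E2 value was -0.58 on the log2 scale (adjusted p = 0.062), and the falls with PPT and DPN still passed in every fit that left out 1 library, at -1.0 or beyond for PPT and -0.95 or beyond for DPN.

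*SOCS2* (GeneID 8835, chr12:93569814-93583487, plus strand), best known as a brake on growth hormone signaling, was the only one of the 10 whose direction differed between E2 and both other compounds with every change past the test. It was at 0.224 and 0.253 CPM with E2 (5 and 6 reads), 2.53 and 2.58 CPM with PPT (69 and 77 reads), 2.18 and 2.30 CPM with DPN (63 and 67 reads), and 1.26 and 0.779 CPM in Control (39 and 23 reads). The treatments did not overlap, with E2 lowest, Control next and the nonsteroidal agonists highest. *SOCS2* was 0.237-fold of Control with E2 (95% interval 0.115 to 0.490, adjusted p = 0.000935, called), 2.49-fold of Control with PPT (1.5 to 4.13, adjusted p = 0.00323) and 2.19-fold with DPN (1.32 to 3.64, adjusted p = 0.0102). Single libraries decided these calls. The E2 fall was no longer called without Control replicate 1 (log2 fold change -1.70, adjusted p = 0.0213) or E2 replicate 1 (-2.00, 0.0109), though it still passed as a change. Without Control replicate 2 the rises no longer passed, at 1.01 with PPT (adjusted p = 0.0644) and 0.82 with DPN (0.136), while without Control replicate 1 the PPT rise reached 1.71 and was called (0.00446). The overlapping antisense RNA *SOCS2-AS1* was at 0.11 CPM or less in every library.

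*SOCS3* (GeneID 9021, chr17:78356778-78360077, minus strand), the inhibitor that binds gp130 itself, rose with E2 and DPN. It had 4.96 and 5.60 CPM with E2 (111 and 133 reads), 1.17 and 2.68 CPM with PPT (32 and 80 reads), 6.82 and 5.98 CPM with DPN (197 and 174 reads), and 0.935 and 1.63 CPM in Control (29 and 48 reads). E2 and DPN libraries lay well above the rest, and the PPT libraries, which differed widely from each other, overlapped Control. Expression was 4.13-fold higher with E2 than in Control (95% interval 2.67 to 6.39, adjusted p = 1.87e-06) and 5.00-fold higher with DPN (3.27 to 7.65, adjusted p = 2.98e-07), and both rises were called. With PPT the log2 fold change was 0.61 (-0.08 to 1.29, adjusted p = 0.144), and the PPT libraries decided its value: without PPT replicate 2 it was -0.12 (adjusted p = 0.841), and without PPT replicate 1 it was 1.07 (0.00735). Without Control replicate 2 it was 1.04 (adjusted p = 0.0454).

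*CISH* (GeneID 1154, chr3:50606489-50611774, minus strand), a feedback inhibitor classically driven by STAT5, passed no test. It had 1.34 and 1.43 CPM with E2, 0.696 and 1.47 CPM with PPT, 1.49 and 0.893 CPM with DPN, and 0.903 and 1.97 CPM in Control (19 to 58 reads per library). The replicates of PPT, DPN and Control spread so widely that every treatment overlapped Control. The log2 fold changes were -0.04 with E2 (95% interval -0.96 to 0.88, adjusted p = 0.939), -0.39 with PPT (-1.31 to 0.53, adjusted p = 0.512) and -0.26 with DPN (-1.17 to 0.65, adjusted p = 0.657). The intervals reach well to both sides of 0. Its promoter, printed above, held 4 copies of the STAT palindrome. *MAPKAPK3* on the opposite strand overlaps the gene and was at 38.4 to 71.7 CPM, and whether the counting kept the strands apart is not given in the sources used here.

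Counted together, 7 of the 10 genes changed with E2, 4 higher and 3 lower, where 62.6% of all tested genes changed (30.8% higher and 31.8% lower). With PPT 6 changed, 4 higher and 2 lower, where 45.7% of all genes did (22.9% higher and 22.8% lower). With DPN 9 changed, 7 higher and 2 lower, where 48.5% of all genes did, 24.4% higher and 24.1% lower. Only *CISH* changed with none of the compounds. With E2 2 were called, *SOCS3* higher and *SOCS2* lower, where 10.1% of all tested genes were called, 7.15% higher and 2.98% lower. With PPT 1 was called, *IL6R*, where 4.76% of all genes were called and 1.9% were called higher. With DPN 2 were called, *IL6R* and *SOCS3*, where 3.95% of all genes were called and 1.92% were called higher. The paper had already reported these rises of *IL6R* and *SOCS3*, and the 10 genes were chosen with earlier results known. The median log2 fold change of the 10 was 0.15 for E2, 0.13 for PPT and 0.34 for DPN, and that of all tested genes lay between -0.0045 and 0.0075. The 3 comparisons use the same Control libraries.

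**Figure D2:**
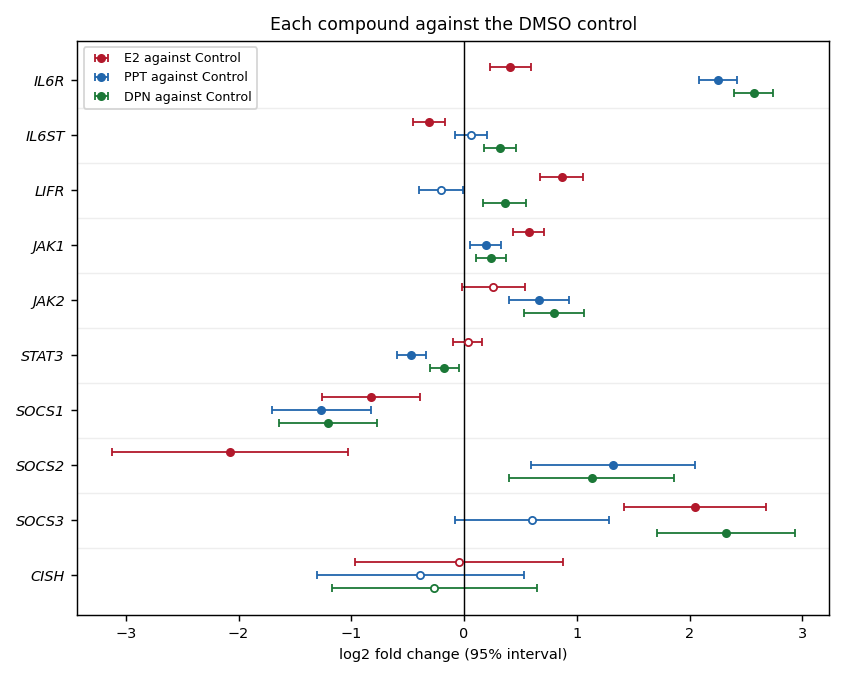
Log2 fold change of each of the 10 genes (rows) against Control with its 95% interval, for E2, PPT and DPN. Filled points passed at an adjusted p under 0.05. *IL6R* stands at 2.25 with PPT and 2.57 with DPN but 0.41 with E2, *SOCS3* at 2.05 with E2 and 2.32 with DPN, *SOCS2* lies left of 0 with E2 only, and *SOCS1* lies left of 0 with all 3.

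The compounds were given at the same dose for the same time, so the 3 pairs were tested directly, with p-values adjusted over the 15460 genes in each pair. Between E2, the steroid, and PPT 8 of the 10 genes differed, 4 higher and 4 lower, where 62.1% of all genes did (30.1% higher and 32.1% lower). The widest gaps were in *IL6R*, with 27.7 and 29.6 CPM with E2 against 98.8 and 107 CPM with PPT (log2 fold change -1.84 ± 0.083 SE, adjusted p = 9.49e-17), and *SOCS2*, at 0.224 and 0.253 CPM with E2 against 2.53 and 2.58 CPM with PPT (-3.40 ± 0.47, adjusted p = 4.57e-07). Both were called lower, where 10.9% of all genes were called and 3.03% were called lower. *LIFR* was higher with E2 than with PPT (1.07, adjusted p = 1.25e-10), as were *STAT3* (0.50, 1.14e-07), *JAK1* (0.38, 1.52e-05) and *SOCS3* (1.44, 0.000111). *IL6ST* (-0.38, adjusted p = 3.47e-05) and *JAK2* (-0.40, 0.00937) were lower with E2. The *JAK2* difference no longer passed without E2 replicate 1 or PPT replicate 2 (adjusted p = 0.104 and 0.083). The *SOCS3* difference passed in every fit, at 0.97 to 2.16 with 1 library left out, and was called without PPT replicate 2 (2.16) and without E2 replicate 1 (1.52).

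Between E2 and DPN 7 of the 10 genes differed, 3 higher and 4 lower, where 63.9% of all genes did (32.6% higher and 31.3% lower). *IL6R* (log2 fold change -2.16 ± 0.083 SE, adjusted p = 4.83e-18) and *SOCS2* (-3.21 ± 0.47, adjusted p = 1.25e-06) were again the widest and were called lower, where 10.7% of all genes were called and 3.27% were called lower. *IL6ST* (-0.63, adjusted p = 8.16e-09) and *JAK2* (-0.54, 0.000816) were also lower with E2. *LIFR* (0.51, adjusted p = 2.49e-05), *JAK1* (0.33, 8.55e-05) and *STAT3* (0.21, 0.0054) were higher with E2. Under library-size scaling the *JAK1* difference was 0.14 (adjusted p = 0.0725) and the *STAT3* difference 0.01 (0.887), where the median of all genes moved to -0.16, and without DPN replicate 1 *STAT3* was at 0.17 (0.0874). For *SOCS3*, which rose with both, the log2 difference was -0.28 (95% interval -0.81 to 0.26, adjusted p = 0.363), or 0.826-fold with an interval of 0.570 to 1.20.

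Between DPN and PPT, both nonsteroidal, 5 of the 10 genes differed and all 5 were higher with DPN, where 37.8% of all genes differed, 19.1% higher and 18.8% lower. *SOCS3* gave the clearest contrast, at 6.82 and 5.98 CPM with DPN against 1.17 and 2.68 CPM with PPT (log2 fold change 1.72 ± 0.28 SE, adjusted p = 2.5e-05), and it was called, where 1.37% of all genes were called and 0.957% were called higher. Without PPT replicate 1 it was 1.25 and not called, and without PPT replicate 2 it was 2.44. *LIFR* (0.56, adjusted p = 2.74e-05), *STAT3* (0.29, 0.000566) and *IL6R* (0.32, 0.00162) were also higher with DPN. *IL6ST* was higher as well (0.26, adjusted p = 0.00382), though not past the test without PPT replicate 1 (0.0777) or DPN replicate 1 (0.0883). The other 5 did not pass, and their intervals show how far a difference could still reach: -0.09 to 0.18 for *JAK1*, -0.13 to 0.39 for *JAK2*, -0.41 to 0.53 for *SOCS1*, -0.86 to 0.49 for *SOCS2* and -0.82 to 1.06 for *CISH*.

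**Figure D3:**
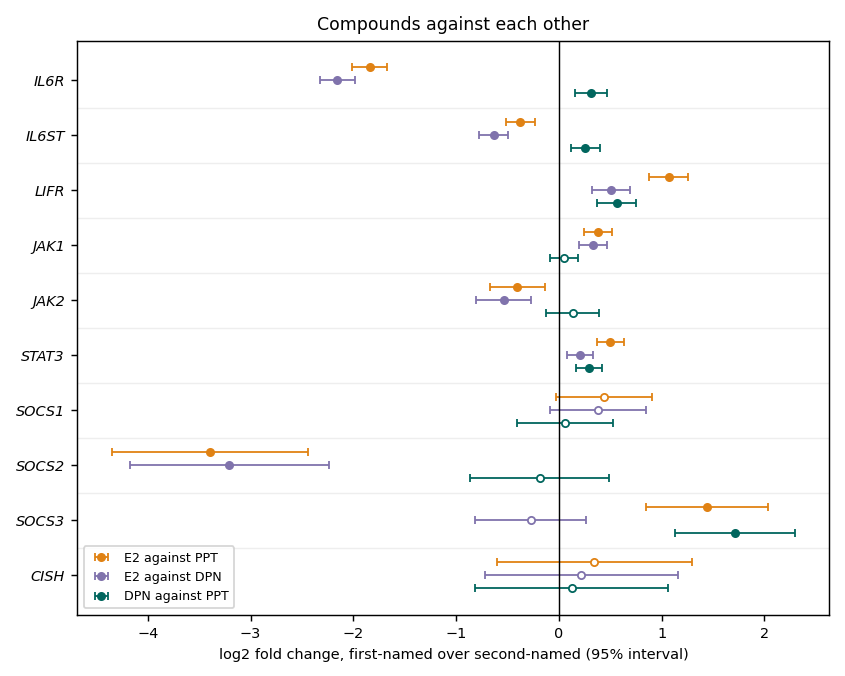
Log2 fold change between compounds for each of the 10 genes (rows), the first-named over the second-named compound, with 95% intervals. Filled points passed at an adjusted p under 0.05. *IL6R* and *SOCS2* lie far left of 0 in both comparisons of E2, *SOCS3* is right of 0 for E2 against PPT (1.44) and DPN against PPT (1.72) and crosses 0 for E2 against DPN.

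Exon length here is that of all annotated exons of a gene together, so levels per kb compare genes only roughly. On this scale *STAT3* and *IL6ST* were the most abundant of the 10 in Control, with means of 23.8 and 24.1 CPM per kb and overlapping libraries. *JAK1* came next at 10.7. *LIFR* (3.42), *IL6R* (3.09) and *SOCS1* (4.13) formed a middle group whose Control libraries overlapped for *SOCS1* and *LIFR* (3.43 and 4.83 against 3.29 and 3.56 CPM per kb). *JAK2* followed at 1.33, *SOCS3* at 0.469, *CISH* at 0.284 and *SOCS2* at 0.157 CPM per kb, with overlapping libraries between neighbors among the last 3.

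The proportions between the receptor chains were compared as well. The ratio of *IL6R* to *IL6ST*, per kb, was 0.205 and 0.218 in the E2 libraries, 0.598 and 0.572 with PPT, 0.573 and 0.645 with DPN, and 0.118 and 0.139 in Control. *IL6R* was thus the scarcer transcript in all 8 libraries, and its ratio was highest in the PPT and DPN libraries. The ratio of *IL6R* to *LIFR* was 0.675 and 0.641 with E2, 5.22 and 4.72 with PPT, 4.20 and 4.14 with DPN, and 0.827 and 0.984 in Control. *LIFR* was therefore the more abundant chain with E2 and in Control, and *IL6R* with PPT and DPN. Between the inhibitors, the ratio of *SOCS3* to *SOCS1* was 0.834 and 0.828 with E2, 0.241 and 0.595 with PPT, 1.34 and 1.28 with DPN, and 0.0998 and 0.123 in Control. Per kb, *SOCS3* thus passed *SOCS1* with DPN only. In CPM without exon length it was also above *SOCS1* with E2, at 4.96 and 5.60 against 3.89 and 4.42 CPM. These ratios rest on 1 annotation of exon length per gene and were not tested.

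**Figure D4:**
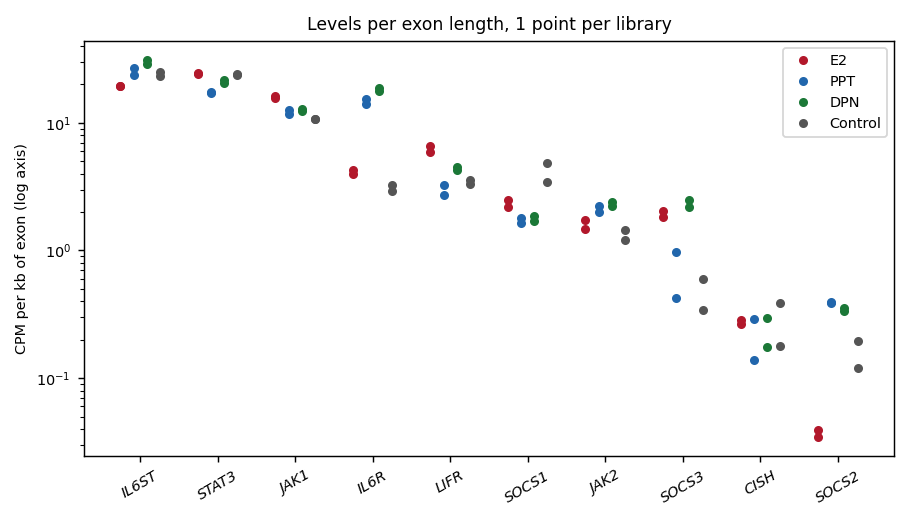
Level of each of the 10 genes per kb of exon, in CPM per kb on a log axis, with 1 point per library for E2, PPT, DPN and Control. *IL6ST*, *STAT3* and *JAK1* lie above 10 CPM per kb in every library, and *SOCS2* with E2 is lowest of all at 0.0345 and 0.0390.

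The cytokines of the family were next examined, and 3 of the 6 with enough counts were higher with each compound and none lower, where the share of all tested genes that were higher was 30.8% for E2, 22.9% for PPT and 24.4% for DPN. For E2, 2 were higher with DESeq2, with no filter, with a filter of 1 CPM and without either Control replicate or E2 replicate 2, and 1 was lower under library-size scaling. With edgeR on 4 libraries the count for E2 was 4 higher. *IL6* itself had 0 reads in all 8 libraries, as had *IL31*, which allows at most 3 reads per library. *LIF*, the ligand of LIFR, had 8.09 and 9.98 CPM with E2, 15.6 and 12.2 CPM with PPT, 16.2 and 15.4 CPM with DPN, and 3.84 and 3.73 CPM in Control. Every treated library was above both Control libraries, with log2 fold changes of 1.26 for E2 (adjusted p = 3.74e-07), 1.88 for PPT (2.21e-10) and 2.06 for DPN (3.47e-11). *IL11*, which signals through its own receptor chain and gp130, had 6.31 and 7.16 CPM with E2, 5.94 and 6.63 CPM with PPT, 8.11 and 7.90 CPM with DPN, and 0.935 and 2.47 CPM in Control. Its log2 fold changes were 1.99, 1.89 and 2.24 for E2, PPT and DPN (adjusted p = 2.67e-07, 9.62e-07 and 4.34e-08). The Control libraries decided their size: without Control replicate 2 they were 2.82, 2.74 and 3.08, and without Control replicate 1 those for E2 and PPT were 1.44 and 1.34 and no longer called. *CLCF1*, a cytokine of the CNTF receptor, rose with PPT (2.55, adjusted p = 8.09e-06) and DPN (2.95, 6.56e-07) and stood at 0.27 with E2 (0.67). Its folds rest on 16 and 8 Control reads, and *CNTFR*, the gene of that receptor, had 0 reads in all 8 libraries. *EBI3*, a subunit of IL-27, rose with E2 by 1.80 (adjusted p = 0.0226) on fewer than 1 CPM, a change that no longer passed without either Control replicate or E2 replicate 2 (0.0759 to 0.17), with no filter on low counts (0.07) or with DESeq2 (0.077). The median of the 6 was 1.32 for E2, 1.40 for PPT and 1.66 for DPN. Without PPT replicate 1 the PPT median was 0.73, and with no filter on low counts, which admits more genes of the list, the medians for E2 and DPN were 0.71 and 0.63.

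Among the other receptor chains and the proteases that shed IL6R, 7 of 8 genes were tested. With E2 3 rose and 1 fell, with PPT 2 rose and 2 fell, and with DPN 3 rose and 1 fell. That is 57.1% of the list in each case, beside 62.6%, 45.7% and 48.5% of all tested genes. *OSMR*, which pairs with gp130 to bind oncostatin M, was at 235 and 244 CPM with E2, 107 and 115 CPM with PPT, 162 and 155 CPM with DPN, and 99.3 and 98.4 CPM in Control. It was higher with E2 (log2 fold change 1.28, adjusted p = 4.4e-15) and DPN (0.68, 3.18e-09). With PPT the value was 0.17 (adjusted p = 0.0478), which no longer passed without either Control replicate, PPT replicate 2 or either DPN replicate, with DESeq2 or under 3 other scalings (0.0648 to 0.244). *ADAM17*, the main sheddase of IL6R, had 65.4 and 69.4 CPM with E2, 106 and 107 CPM with PPT, 117 and 109 CPM with DPN, and 69.7 and 70.3 CPM in Control. It rose with PPT (0.60, adjusted p = 8.55e-08) and DPN (0.70, 6.66e-09) and was at -0.05 with E2 (0.542), which became -0.28 (0.00183) under library-size scaling. *ADAM10*, a second protease able to cut IL6R, rose with DPN by 0.40 (adjusted p = 1.31e-05) and was at 0.08 with E2 (0.274) and -0.06 with PPT (0.472). The median of the list was 0.08 for E2, -0.06 for PPT and -0.07 for DPN, and that for E2 was -0.14 under library-size scaling, with 2 higher and 3 lower. The DPN median turned to 0.21 without DPN replicate 1 and 0.11 without DPN replicate 2.

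Of 15 tested receptors for other cytokines that signal through JAKs, 6 rose and 3 fell with E2, 5 rose and 2 fell with PPT, and 9 rose and 1 fell with DPN, with medians of 0.11, -0.08 and 0.37 in that order. The genes that changed were 60% of the list with E2, 46.7% with PPT and 66.7% with DPN, beside 62.6%, 45.7% and 48.5% of all tested genes. Library-size scaling turned the E2 median to -0.12, with 3 higher and 5 lower, and leaving out E2 replicate 2 turned it to -0.09. Without Control replicate 1 the PPT count was 3 higher and 0 lower. *IL4R*, the IL-4 receptor chain, was lower with E2 (log2 fold change -0.34, adjusted p = 0.00613) and higher with PPT (0.75, 4.08e-07) and DPN (0.97, 4.35e-09). Its E2 fall no longer passed without Control replicate 2 (adjusted p = 0.0871) or E2 replicate 1 (0.0667). *CSF3R*, the receptor for G-CSF, rose with E2 (1.48, adjusted p = 2.66e-11), PPT (0.43, 0.0054) and DPN (0.75, 9.61e-06). *IL13RA1*, a receptor chain for IL-13, rose with E2 (0.86, adjusted p = 1.39e-11) and DPN (0.37, 3.6e-05), and was at -0.16 with PPT (0.0595), a value that passed under RLE, upper-quartile and library-size scaling, with DESeq2 and without Control replicate 2 or PPT replicate 1 (0.0302 to 0.045). *IFNGR1*, the ligand-binding chain for interferon-γ, fell with E2 by 0.84 (adjusted p = 4.79e-11). It was lower with PPT (-0.20, adjusted p = 0.0148) and higher with DPN (0.19, 0.0213). Both small changes were lost without 1 library. The PPT value was then -0.15 without Control replicate 1 and -0.16 without PPT replicate 1. The DPN value was 0.13 without Control replicate 2 and 0.14 without DPN replicate 1. Under upper-quartile scaling the DPN change did not pass either (0.16, adjusted p = 0.0523).

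The other kinases and STATs gave 7 tested genes, of which 3 rose with E2, 2 rose and 3 fell with PPT, and 3 rose and 1 fell with DPN. These were 42.9%, 71.4% and 57.1% of the list, beside 62.6%, 45.7% and 48.5% of all tested genes. With a replicate block, 1 rose and 2 fell with PPT. The PPT count of 5 was 2 with DESeq2, 1 without Control replicate 1 or PPT replicate 1, 2 without Control replicate 2, and 3 without PPT replicate 2 or DPN replicate 2. *STAT6*, the factor of IL-4 signaling, was at 55.5 and 53.7 CPM with E2, 91.0 and 78.5 CPM with PPT, 89.0 and 92.2 CPM with DPN, and 48.7 and 52.7 CPM in Control. It rose with PPT (log2 fold change 0.74, adjusted p = 2.08e-08) and DPN (0.84, 2.19e-09), and was at 0.11 with E2 (0.27). *JAK3*, the kinase of the common γ chain, rose with E2 (0.65, adjusted p = 1.78e-06) and DPN (0.36, 0.00294). *TYK2*, the third kinase found on gp130, fell with DPN by 0.57 (adjusted p = 0.000133). Values with PPT were -0.26 for *JAK3* (adjusted p = 0.0381) and -0.28 for *TYK2* (0.0441), and both were lost with DESeq2 (0.0534 and 0.0848) and without any 1 of the Control or PPT libraries (0.0737 to 0.184), and *JAK3* also without DPN replicate 2 (0.0501). *TYK2* with E2 was at -0.21 (0.106), and -0.44 (0.00143) with library-size scaling. The median of the list with E2 was 0.18, and -0.05 under library-size scaling.

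Among other inhibitors and adaptors of JAK-STAT signaling 18 of 20 were tested. With E2 10 rose and 3 fell, with PPT 5 rose and 5 fell, and with DPN 6 rose and 4 fell, with medians of 0.40, 0.0025 and 0.03 in that order. The genes that changed were 72.2%, 55.6% and 55.6% of the list, beside 62.6%, 45.7% and 48.5% of all tested genes. Under library-size scaling the E2 count was 7 higher and 7 lower. Without Control replicate 1 the PPT count was 3 higher and 3 lower and the DPN count 3 higher and 2 lower, and the PPT median turned to -0.05. *SOCS5*, a further member of the SOCS family, had 79.7 and 83.8 CPM with E2, 28.8 and 33.1 CPM with PPT, 41.7 and 42.6 CPM with DPN, and 39.7 and 38.2 CPM in Control. It rose with E2 (log2 fold change 1.07, adjusted p = 3.11e-11) and fell by 0.33 with PPT (0.00321), a fall lost without PPT replicate 1 (0.0635). *SOCS6* rose with E2 (0.38, adjusted p = 9.77e-05), PPT (0.73, 6.39e-09) and DPN (0.42, 3.5e-05), though with E2 it did not pass under library-size scaling (0.16, 0.0736). *PIAS2*, a SUMO ligase that restrains STATs, rose with E2 (1.15, adjusted p = 2.06e-10). With DPN it was at 0.28 (adjusted p = 0.0293), not past the test without any 1 of the Control or DPN libraries (0.0697 to 0.184) or under upper-quartile (0.0519) or library-size scaling (0.0505). *PTPN1*, a phosphatase that acts on JAK2 and TYK2, fell with E2 by 0.87 (adjusted p = 6.82e-11) and was at -0.07 with PPT (0.456) and 0.04 with DPN (0.692).

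The last list held 30 genes known as STAT3 targets in liver or other cells, 26 of them tested. With E2 14 rose and 7 fell, with PPT 5 rose and 13 fell, and with DPN 9 rose and 11 fell, where 30.8% of all tested genes rose and 31.8% fell with E2, 22.9% and 22.8% with PPT, and 24.4% and 24.1% with DPN. The medians were 0.54, -0.40 and 0.0035 for E2, PPT and DPN, and library-size scaling left that for E2 at 0.31. *SERPINA3*, an acute-phase protease inhibitor, reached 9188 and 8403 CPM with E2, 413 and 404 CPM with PPT, 1011 and 1060 CPM with DPN, and 890 and 965 CPM in Control. It rose with E2 (log2 fold change 3.25, adjusted p = 6.01e-24) and fell by 1.18 with PPT (7.46e-15), and its value with DPN of 0.16 (0.0337) was lost without Control replicate 1 (0.334) or DPN replicate 2 (0.216) and under upper-quartile (0.0919) and library-size scaling (0.0786). *HP*, haptoglobin, was at 738 and 717 CPM with E2, 55.7 and 53.7 CPM with PPT, 256 and 273 CPM with DPN, and 149 and 159 CPM in Control. It rose with E2 (2.24, adjusted p = 2.1e-20) and DPN (0.78, 1.27e-10) and fell by 1.49 with PPT (4.9e-16). *VEGFA*, the vascular growth factor, rose with E2 (2.15, adjusted p = 4.43e-20) and fell by 0.45 with PPT (2.17e-06) and by 0.61 with DPN (1.49e-08). *FGL1*, a hepatokine, rose with E2 by 2.48 (adjusted p = 4.43e-20) and was at -0.13 with PPT (0.202) and 0.12 with DPN (0.203). These genes, named by the smallest p, all rose with E2, and none of the 7 that fell is among them. Elsewhere in the list, *FGG* had 2574 and 2634 CPM with E2 against 5608 and 5323 CPM in Control. *ICAM1* had 109 and 102 CPM with E2 against 274 and 279 CPM in Control. The extremes, named after their values were seen, were *HAMP*, hepcidin, at 5.77 with E2 (adjusted p = 1.69e-14, and 6.36 without Control replicate 2), and *NNMT*, a nicotinamide methyltransferase, at 4.29 with DPN (3.32e-07). Both folds rest on few Control reads, 5 and 10 for *HAMP* and 5 and 5 for *NNMT*. *HAMP* also rose with PPT (2.63, adjusted p = 4.19e-06). With DPN *HAMP* was at 1.23 (adjusted p = 0.0342, on 13 and 21 DPN reads), which did not pass with edgeR on 4 libraries (0.117). Single libraries also decided it: the value was 0.78 without Control replicate 1, 0.85 without DPN replicate 2 and 1.83 without Control replicate 2. *CRP*, the classic acute-phase gene, had 0 reads in all libraries, and *SAA1*, *SAA2* and *LBP* were too rare to test. Many of these genes are also hepatocyte genes whose summed marker level moved with the treatments, as given above.

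**Figure D5:**
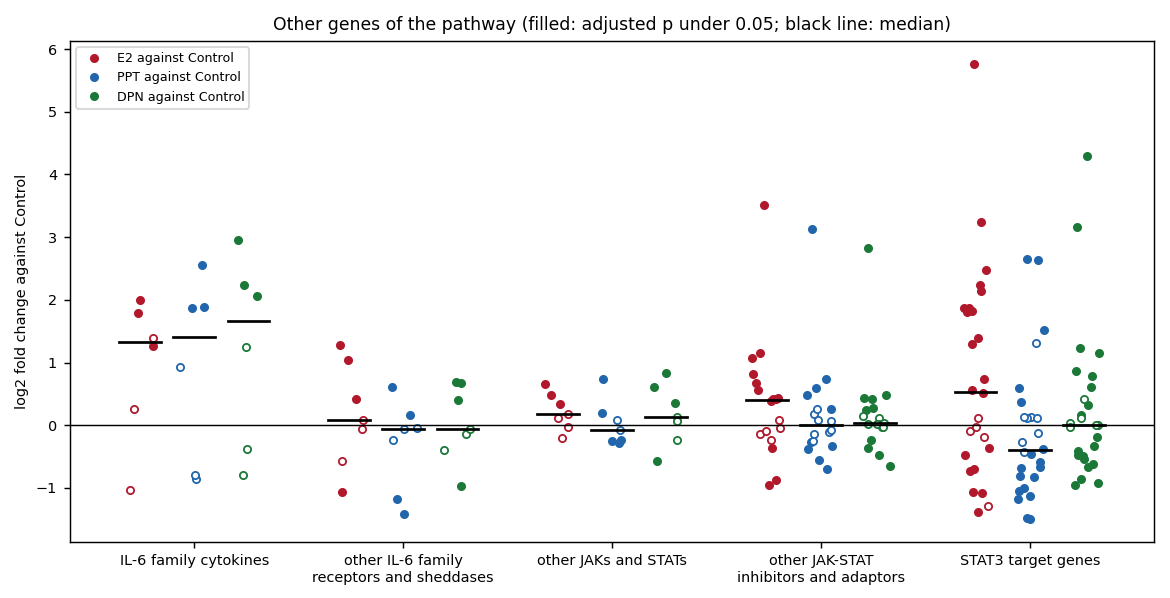
Log2 fold change against Control (vertical axis) of each tested gene in 5 lists of the pathway, for E2, PPT and DPN. Filled points passed at an adjusted p under 0.05 and black lines are medians. The medians of STAT3 targets are 0.54 with E2, -0.40 with PPT and 0.0035 with DPN, and those of the cytokines lie between 1.32 and 1.66.

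The genes whose changes with the 3 compounds were most like those of *IL6R* were sought among 10727 tested genes with a mean of at least 5 CPM, by the root mean square difference of the 3 log2 fold changes. They were *DNAJB9* (0.201), *GCLC* (0.255), *TAGLN* (0.355), *B4GALNT1* (0.388) and *NABP1* (0.431). *DNAJB9*, a chaperone of the endoplasmic reticulum, averaged 86.8 CPM with E2, 254 CPM with PPT, 282 CPM with DPN and 52.5 CPM in Control. *GCLC*, the catalytic subunit of the first enzyme of glutathione synthesis, averaged 206 CPM with E2, 816 CPM with PPT, 961 CPM with DPN and 193 CPM in Control. For *SOCS3* the nearest of 10728 genes was *CCN1*, a matricellular protein (0.144), with means of 46.9 CPM with E2, 20.7 CPM with PPT, 54.8 CPM with DPN and 12.3 CPM in Control. *LOC389602* (0.416), *CD9* (0.458), *ANXA3* (0.477) and *SLC39A11* (0.509) followed. These likenesses rest on 3 fold changes that share the Control libraries and are descriptions with no test.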

How the data were processed

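RNA-Seq of HepG2 cells was analysed from the tables of raw counts per Entrez gene that the authors deposited. By the paper and labels, libraries of poly(A) RNA kept the strand and were sequenced from 1 end over 50 bp, the genome was GRCh38.p10, and DESeq2 was used. The aligner, the counter, their versions and the use of strand are not given in the sources used here. The paper describes 3 replicates per treatment, and 2 were analysed here.

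Symbols came from RefSeq (99.4% of genes matched), positions from GENCODE 44 and promoter sequences from the GRCh38 genome. Genes passing filterByExpr (minimum count 10, minimum total 15) were fitted in edgeR 4.0.16 (R 4.3.3) with TMM scaling and the quasi-likelihood F test, 8 libraries together, with Benjamini-Hochberg adjustment over all 15460 genes per comparison. The biological coefficient of variation was 6.8%. The fit was run on simulated counts and checked there for E2 against Control only. Apart from the genes changed on purpose, the simulated libraries differed only in total and random spread, so the choice of scaling was not examined.

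The 10 genes and the pathway lists were chosen with earlier results of these data known. All 10 are described, and from each other list up to 4 genes with the smallest p against Control are named. Some of these genes and 1 promoter are not reported here. Genes nearest in pattern to *IL6R* and *SOCS3* needed a mean of 5 CPM. Alternatives were DESeq2 1.42.0, edgeR on 4 libraries, scaling by library size, upper quartile or RLE, no filter, a filter of 1 CPM in 2 libraries, a replicate block, and leaving out each library.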

Additional observations from a re-analysis of the deposited data

How the results depend on the processing

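With settings other than leaving out a library, 475 of 480 results for the 10 genes kept their direction and side of the threshold, 3 no longer passed and 2 turned direction. Both turned values were *STAT3* with E2, -0.19 with library-size scaling and -0.0166 with no filter. Library-size scaling also lowered rises to 54.6% of the genes called with E2, against 70.6% with TMM, and under it *ADAM10* stood at -0.14, *STAT6* at -0.12, *GCLC* at -0.13 and *TAGLN* at -0.0085 with E2. DESeq2 changed none of 60 results. With 1 library left out, 448 of 480 stayed, 15 no longer passed, 3 newly passed and 14 turned direction. The results that turned ranged, with E2, from -0.007 to 0.044 for *STAT3* and -0.51 to 0.59 for *CISH*; with PPT, from -0.0296 to 0.15 for *IL6ST*, -0.12 to 1.07 for *SOCS3* and -1.03 to 0.26 for *CISH*; and with DPN, from -0.72 to 0.39 for *CISH*. *CISH* ranged from -0.095 to 0.98 for E2 against PPT, -0.11 to 0.63 for E2 against DPN and -0.31 to 0.77 for DPN against PPT, where *JAK1* ranged from -0.0009 to 0.10 and *SOCS1* from -0.0041 to 0.12. Of the other named genes, with E2 *CLCF1* ranged from -0.14 to 0.80 and *TAGLN* from -0.0001 to 0.40, and with DPN *PTPN1* from -0.0188 to 0.092. The number of the 10 genes that changed ranged from 6 to 7 with E2, 5 to 7 with PPT and 7 to 9 with DPN. The causes were not tested. Replicate numbers gave no sign of pairing over all tested genes, where same-numbered libraries deviated with correlations of -0.0645 to 0.0233. A batch that acts on fewer genes could not be seen in this way. A replicate block changed none of the 60 results for the 10 genes, and with it 1523, 714 and 598 genes were called for E2, PPT and DPN, against 1566, 736 and 610 without it. Among the other named genes the block left *OSMR* and *TYK2* with PPT short of the threshold (adjusted p = 0.0638 and 0.0511). *SOCS2* and *CISH* rest on 5 to 77 and 19 to 58 reads per library.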
